A study of Mus musculus with 12 samples.

Results

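The CXC chemokines are small secreted proteins that direct the migration of leukocytes, and 8 of their genes were followed here through a response of macrophages to lipopolysaccharide (LPS). The 8 genes Cxcl1, Cxcl2, Cxcl3, Cxcl5, Cxcl9, Cxcl10, Cxcl11 and Cxcl16 were taken by symbol from the 19938 genes that had a probe set of their own on the array. Each of the 8 had 1 probe set, so no choice between probe sets was needed. The probe sets were 10523151 for Cxcl1, 10523156 for Cxcl2, 10523138 for Cxcl3, 10523120 for Cxcl5, 10531407 for Cxcl9, 10531415 for Cxcl10, 10531420 for Cxcl11 and 10387890 for Cxcl16.

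Macrophages were grown from marrow of C3H/HeN mice, a strain with a working LPS receptor, first with IL-3, IL-6 and SCF beside L-cell conditioned medium (a source of M-CSF) and then with that medium alone, which was left out from the day before stimulation. They were stimulated on day 17 of culture, without LPS (called 0 min here) or after 45 min or 270 min with 100 ng/ml LPS. All cultures, unstimulated ones included, received 200 µM 4-thiouridine for their last 35 min, a uridine analogue that enters RNA as it is made. The labelled RNA was biotinylated and purified from the total RNA of the same culture and is called nascent RNA. Affymetrix Mouse Gene ST 1.0 arrays were hybridised with 100 ng of nascent or 200 ng of total RNA, giving 6 groups of 2 arrays, 1 from each of 2 independent experiments, 12 arrays in all. No source used here gives the age, sex or number of the mice.

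CXC chemokines bind G protein-coupled receptors on leukocytes and are held on heparan sulfate at vessel walls. Cxcl1, Cxcl2, Cxcl3 and Cxcl5 carry the tripeptide motif called ELR before their first cysteines, signal through Cxcr2 and recruit neutrophils. Cxcl9, Cxcl10 and Cxcl11 lack that motif, signal through Cxcr3 and recruit activated T cells and NK cells. Cxcl16 is made as a transmembrane protein, binds Cxcr6 and oxidised lipoprotein, and is released by the proteases Adam10 and Adam17. In macrophages LPS acts through Toll-like receptor 4, whose Myd88 branch activates NF-kB and whose Trif branch activates Irf3 and interferon beta.

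By RefSeq's gene table of assembly GRCm38.p6, read for names and neighbours only, 7 of the 8 genes lie on chromosome 5 and Cxcl16 on chromosome 11. Cxcl1 and Cxcl2 are adjacent, Cxcl3 is separated from Cxcl1 by Cxcl15 only, and Cxcl10 and Cxcl11 are adjacent, with Cxcl9 next to Art3, the gene on the other side of Cxcl10. That assembly is of C57BL/6J and lists Cxcl11 as a transcribed pseudogene, and the cells studied here were of C3H/HeN. Promoter sequence was held in the RefSeq table for Cxcl1, Cxcl2, Cxcl3, Cxcl9 and Cxcl10. The 250 bases before each annotated start are printed because these 5 genes differed in how early they rose after LPS. Whether these sequences bear on that timing was not tested. The windows are chr5:90890995-90891244 (+ strand) for Cxcl1, chr5:90903649-90903898 (+) for Cxcl2, chr5:90785851-90786100 (+) for Cxcl3, chr5:92328080-92328329 (- strand) for Cxcl9 and chr5:92348890-92349139 (-) for Cxcl10. Capitals mark matches to the kappa B consensus, the binding motif of NF-kB, and to the core of the interferon-stimulated response element (ISRE), searched as GAAA, any 2 bases, GAAA.
Cxcl1: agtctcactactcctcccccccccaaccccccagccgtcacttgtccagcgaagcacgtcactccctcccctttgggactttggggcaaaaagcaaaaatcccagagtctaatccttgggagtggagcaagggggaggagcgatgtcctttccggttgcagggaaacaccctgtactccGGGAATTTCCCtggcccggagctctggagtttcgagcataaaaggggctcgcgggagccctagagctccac
Cxcl2: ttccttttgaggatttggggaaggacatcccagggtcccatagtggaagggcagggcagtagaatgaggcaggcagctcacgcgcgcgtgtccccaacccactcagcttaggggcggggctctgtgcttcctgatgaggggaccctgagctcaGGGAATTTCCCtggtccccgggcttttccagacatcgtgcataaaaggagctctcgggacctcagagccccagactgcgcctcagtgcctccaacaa
Cxcl3: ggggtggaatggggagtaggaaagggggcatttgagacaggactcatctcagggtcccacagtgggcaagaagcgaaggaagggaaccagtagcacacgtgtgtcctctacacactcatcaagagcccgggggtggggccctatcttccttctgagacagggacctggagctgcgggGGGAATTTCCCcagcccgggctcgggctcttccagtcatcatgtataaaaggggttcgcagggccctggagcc
Cxcl9: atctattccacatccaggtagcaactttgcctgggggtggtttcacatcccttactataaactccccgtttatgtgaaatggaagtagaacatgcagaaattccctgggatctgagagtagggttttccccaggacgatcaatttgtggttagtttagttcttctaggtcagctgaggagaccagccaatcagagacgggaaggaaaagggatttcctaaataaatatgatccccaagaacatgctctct
Cxcl10: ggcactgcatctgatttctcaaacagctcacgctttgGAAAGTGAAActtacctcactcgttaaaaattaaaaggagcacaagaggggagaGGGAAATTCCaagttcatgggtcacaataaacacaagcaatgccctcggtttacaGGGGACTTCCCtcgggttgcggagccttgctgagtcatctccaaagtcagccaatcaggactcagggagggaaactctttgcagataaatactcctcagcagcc

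The same 11 bases, GGGAATTTCCC, stand upstream of Cxcl1 (bases -71 to -61 from the start), Cxcl2 (-97 to -87) and Cxcl3 (-73 to -63), and hold a kappa B match on each strand. These 11 bases were found on either strand in 14 of 32851 upstream windows of the same length (0.0426%). Cxcl10 had 2 separate kappa B stretches, GGGAAATTCC at -159 to -150 and GGGGACTTCCC at -104 to -94, and the only match of the 5 to the ISRE core, GAAAGTGAAA at -213 to -204. A kappa B match occurred in 4 of the 5 windows, against 7.25% of all windows, and an ISRE core match in 1 of 5, against 2.98%. The Cxcl9 window held neither match, and a TATAAA match at -195 to -190. TATAAA was matched in Cxcl3 also, at -30 to -25 (12.4% of all windows), the AP-1 motif TGANTCA in Cxcl10 at -74 to -68 (6.75%), and the STAT motif TTCNNNGAA in 0 of 5 (7.02%). Motifs were searched on both strands, the kappa B matches overlap each other as given, and no match says only that these letters are not in the window. Aligned end to end, the Cxcl2 and Cxcl3 windows were identical at 74.4% of 215 aligned bases, the Cxcl1 and Cxcl2 windows at 62.3% of 223, and the Cxcl1 and Cxcl3 windows at 60.7% of 229. Between the Cxcl9 and Cxcl10 windows the identity was 58.3% of 230 aligned bases. The other pairs that hold Cxcl9 or Cxcl10 had 47.3% to 58.1%.

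**Figure D1:**
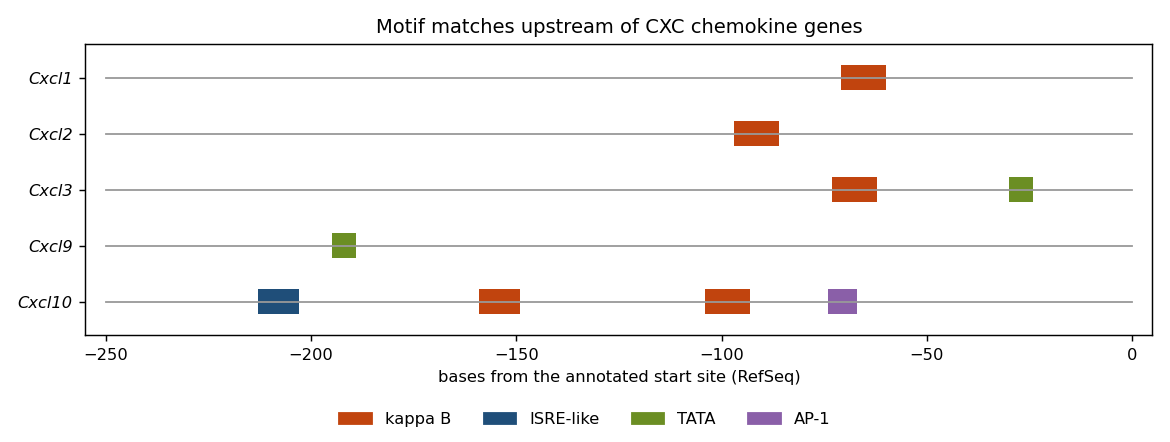
Motif matches in the 250 bases upstream of the annotated start of 5 CXC chemokine genes, by distance from the start in bases; boxes are matches on either strand, coloured by motif. Cxcl1, Cxcl2 and Cxcl3 each have 1 kappa B stretch between -97 and -61, Cxcl10 has 2 kappa B stretches and the only ISRE core match, and Cxcl9 has neither.

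Values are log2 intensities, and differences between groups are log2 differences with limma's standard error (SE) and n = 2 arrays per group. A gene was called at a Benjamini-Hochberg adjusted p below 0.05 over all 19938 genes. The 95th percentile of the 1027 genes with symbols starting with Olfr (olfactory receptors) served as the background level of each array and lay between 6.18 and 6.8. If the dimmer of the groups compared had both arrays under it, the fold is given as a lower bound, computed against that level or, if higher, the gene's measured value. Replicate arrays had a correlation of r = 0.9806 to 0.9891 over all genes, and the interquartile range of log2 values ran from 2.238 to 3.016 over the 12 arrays. This spread differed between groups. In nascent RNA it was 2.642 and 3.004 without LPS, 2.501 and 2.238 at 45 min, and 2.296 and 2.246 at 270 min. The background level was 6.41 and 6.19 in the unstimulated nascent arrays and 6.62 and 6.8 in those of 270 min. How far this entered the differences was not tested. Of 9 macrophage markers, all 9, Csf1r and Adgre1 among them, were above background on every array, while 6 of 11 neutrophil markers, Ly6g, S100a9 and Elane among them, were below it on every array and 1, Csf3r, was above it on every array. Arrays of bulk RNA cannot tell more cells of a type from more RNA per cell.

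Cxcl1 and Cxcl2, the neutrophil chemokines KC and MIP-2, rose in both RNA fractions by 45 min. Cxcl1 nascent RNA was at 7.11 in both unstimulated cultures, 12.82 and 12.42 in experiments 1 and 2 at 45 min, and 11.77 and 11.39 at 270 min. Both stimulated times lay far above the unstimulated arrays, and both 270 min arrays lay below both 45 min arrays. It had risen by 5.51 ± 0.21 at 45 min (45.5-fold, adjusted p = 3.83e-09) and was 4.47 ± 0.21 above the unstimulated level at 270 min (adjusted p = 6.98e-09). From 45 to 270 min it fell by 1.04 (SE 0.21, adjusted p = 0.00297), with -1.05 in experiment 1 and -1.03 in experiment 2. That fall was not called without the 270 min nascent array of experiment 2 (-0.85, adjusted p = 0.0607) or the 45 min nascent array of experiment 1 (-0.84, adjusted p = 0.0608).

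In total RNA, Cxcl1 was at 6.35 and 6.26 without LPS, near the background level, 11.4 and 11.38 at 45 min, and 11.88 and 11.55 at 270 min. The stimulated arrays did not overlap with the unstimulated ones. The rise was 5.09 ± 0.21 at 45 min (adjusted p = 8.01e-09) and 5.41 ± 0.21 at 270 min (adjusted p = 1.28e-09). Between 45 and 270 min total RNA of Cxcl1 differed by 0.32 (95% confidence interval -0.14 to 0.78, adjusted p = 0.332), so these neighbouring levels were not told apart.

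Cxcl2 was above background before LPS in both fractions, with nascent RNA at 8.97 and 8.6 and total RNA at 6.76 and 7.48. Its nascent RNA reached 13.46 and 13.36 at 45 min and stood at 13.08 and 13.24 at 270 min. Its total RNA reached 12.52 and 12.96 at 45 min and 12.83 and 12.94 at 270 min. All stimulated arrays were higher than all unstimulated arrays of the same fraction, while the 45 and 270 min arrays of total RNA overlapped. Nascent RNA rose by 4.62 ± 0.24 at 45 min (24.6-fold, adjusted p = 4.38e-08) and was 4.37 ± 0.24 above the start at 270 min (adjusted p = 2.1e-08). Total RNA rose by 5.62 ± 0.24 (49.2-fold, adjusted p = 8.01e-09) and 5.77 ± 0.24 (adjusted p = 1.92e-09) at these times. From 45 to 270 min the difference was -0.25 (95% confidence interval -0.76 to 0.26) in nascent and 0.15 (-0.36 to 0.65) in total RNA, and neither was called (adjusted p = 0.634 and 0.714). The brightest probe set of each array had an intensity of 14259.5 to 29577.9, and Cxcl2 had 8650 to 11200 in stimulated nascent RNA, so its levels lay in the upper part of the scale.

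Cxcl3, the third gene of the GRO subfamily, has the same 11-base kappa B stretch upstream as Cxcl1 and Cxcl2, and most of its rise came after 45 min. Nascent Cxcl3 was at 6.04 and 5.91 without LPS, under the background level, at 7.83 and 7.99 at 45 min and at 11.75 and 11.58 at 270 min. The arrays of the 3 times did not overlap. Nascent RNA rose by 1.94 ± 0.22 at 45 min (at least 3.04-fold, adjusted p = 9.84e-05), by 5.69 ± 0.22 at 270 min (at least 41.1-fold, adjusted p = 1.27e-09), and by 3.75 ± 0.22 between the stimulated times (13.5-fold, adjusted p = 7.63e-08). Total RNA stood at 5.82 and 5.83, then 6.62 and 7, then 11.72 and 12.26 in the same order of times, again without overlap. Total RNA was 0.99 ± 0.22 higher at 45 min, which was not called (adjusted p = 0.0791) but was called once experiment was fitted as a block (adjusted p = 0.0251). At 270 min total RNA had risen by 6.16 ± 0.22 (at least 52.2-fold, adjusted p = 9.33e-10). Of the 5.18 ± 0.22 by which it rose from 45 to 270 min (36.2-fold), experiment 1 showed 5.09 and experiment 2 showed 5.26. Whether Cxcl1, Cxcl2 and Cxcl3 share signal through similar probe sequences was not tested.

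Cxcl5, known as LIX in the mouse, stayed at the edge of detection. Its nascent RNA was at 4.53 and 4.35 without LPS, 4.58 and 4.69 at 45 min and 5.36 and 5.44 at 270 min, all under the background level. Total RNA was at 3.96 and 4.35, then 4.33 and 4.19, then 6.29 and 6.49, and of these 12 values only 1, at 270 min in total RNA, was above the background of its array. The 270 min arrays were the highest of each fraction. Total RNA was 2.24 ± 0.17 higher at 270 min than without LPS (adjusted p = 7.03e-07), which is at least 1.08-fold against the background level. The nascent rise at 270 min was called too (adjusted p = 0.000812), but both groups lay under background and no size is given for it.

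Cxcl10, also called IP-10, was the 1 Cxcr3 ligand called at 45 min, in both fractions. Nascent Cxcl10 was at 5.97 and 6.52 without LPS, 11.87 and 11.83 at 45 min, and 13.27 in both cultures at 270 min. Total Cxcl10 was at 6.39 and 6.5, then 10 and 10.36, then 13.49 and 13.3. The 3 times were separate in each fraction, in the order 0, 45 and 270 min. Nascent RNA rose by 5.6 ± 0.22 at 45 min (48.6-fold, adjusted p = 3.83e-09) and by 7.02 ± 0.22 at 270 min (130-fold, adjusted p = 1.62e-10), from a start at which 1 of 2 arrays was above background. Total RNA rose by 3.73 ± 0.22 at 45 min (13.3-fold, adjusted p = 2.44e-07) and by 6.95 ± 0.22 at 270 min (123-fold, adjusted p = 4.33e-10). Between the stimulated times nascent RNA rose by 1.42 ± 0.22 (adjusted p = 0.000287) and total RNA by 3.22 ± 0.22 (adjusted p = 3.74e-07). At 270 min Cxcl10 had an intensity of 9880 in both nascent arrays and of 11500 and 10100 in total RNA. These levels, like those of Cxcl2, lay in the upper part of the scale, and whether that compressed differences was not tested.

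Cxcl9, also called MIG, and Cxcl11, also called I-TAC, were measured above background at 270 min only. Nascent Cxcl9 was at 6.04 and 5.41, then 6.31 and 6.45, then 8.58 and 8.69 at 0, 45 and 270 min. Total Cxcl9 was at 5.63 and 5.74, then 5.67 and 5.51, then 9.96 and 9.71. The 270 min arrays stood well above the rest in both fractions, and in total RNA the 0 and 45 min arrays overlapped. At 270 min nascent RNA had risen by 2.91 ± 0.21 (at least 5.03-fold, adjusted p = 2.35e-07) and total RNA by 4.15 ± 0.21 (at least 11.8-fold, adjusted p = 1.16e-08). At 45 min the nascent difference of 0.65 ± 0.21 was not called (adjusted p = 0.0687); it was once experiment was fitted as a block (adjusted p = 0.0405), with both groups under background.

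Nascent Cxcl11 was at 5.81 and 5.55, then 5.88 and 6.3, then 8.79 and 9.15 at the 3 times. Total Cxcl11 was at 5.65 and 5.76, then 5.68 and 5.61, then 8.58 and 9.94. The gap of 1.36 between the 2 total RNA arrays at 270 min was the widest between replicate arrays of any of the 8 genes, and both arrays still lay above all earlier ones. The rise at 270 min was 3.29 ± 0.33 in nascent RNA (at least 6.34-fold, adjusted p = 5.34e-06) and 3.55 ± 0.33 in total RNA (at least 7.88-fold, adjusted p = 4.14e-06), with 2.93 in experiment 1 and 4.17 in experiment 2 for total RNA. At 45 min Cxcl11 was not called in nascent (0.41 ± 0.33, adjusted p = 0.469) or total RNA (-0.07 ± 0.33, adjusted p = 1).

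Cxcl16 was well above background before LPS, and its called rises ranged from 1.6-fold to 2.04-fold. Its nascent RNA was at 11.19 and 10.85 without LPS, 12.31 and 11.78 at 45 min and 11.92 and 11.54 at 270 min. Its total RNA was at 11.08 and 11.14, then 11.54 and 11.49, then 11.88 and 11.69. Stimulated arrays were above unstimulated ones in both fractions, and in nascent RNA the 45 and 270 min arrays overlapped. Nascent RNA rose by 1.03 ± 0.21 at 45 min (2.04-fold, adjusted p = 0.00736) and was 0.71 ± 0.21 above the start at 270 min (1.64-fold, adjusted p = 0.0244). Total RNA was 0.4 ± 0.21 higher at 45 min, which was not called (adjusted p = 1), and rose by 0.67 ± 0.21 at 270 min (1.6-fold, adjusted p = 0.0361). These small rises were not stable: the 45 min nascent call was lost without the 45 min nascent array of experiment 1 (0.77) or the unstimulated nascent array of experiment 2 (0.86), and the 270 min nascent call without the 270 min nascent array of experiment 1 (0.52) or that unstimulated array (0.54). The 270 min total call was lost without any 1 of its 4 arrays (0.58 to 0.77), and quantile scaling ended both 270 min calls (0.56 in nascent and 0.5 in total RNA, adjusted p = 0.059 and 0.0955).

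**Figure D2:**
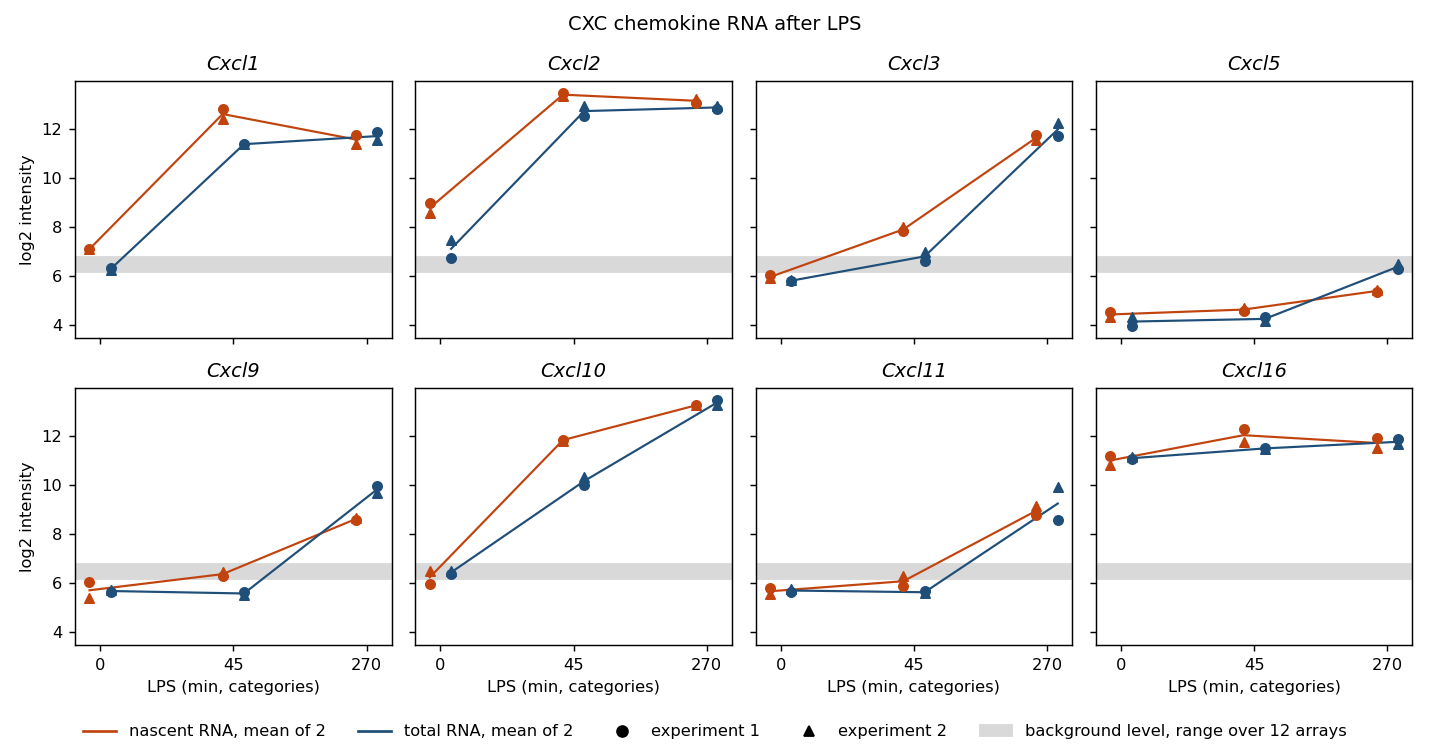
Log2 intensity of the 8 CXC chemokine genes at 0, 45 and 270 min of LPS (equally spaced categories) in nascent and total RNA; points are single arrays, lines join means of 2 arrays, and the grey band is the range of the background level over the 12 arrays. Cxcl1 and Cxcl2 are high by 45 min, Cxcl10 rises at both steps, Cxcl3, Cxcl9 and Cxcl11 reach their highest values at 270 min, Cxcl5 stays near or below the band and Cxcl16 is high throughout.

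Of the 8 genes, 5 rose and 0 fell in the nascent fraction at 45 min (Cxcl1, Cxcl2, Cxcl3, Cxcl10 and Cxcl16), where 3.05% of all genes tested were called higher and 5.88% lower. In total RNA at 45 min 3 were higher (Cxcl1, Cxcl2 and Cxcl10) and 0 lower, against 0.662% and 0.0201% of all genes. At 270 min all 8 were higher in nascent RNA, where 8.87% of all genes were higher, and all 8 in total RNA, where 7.02% were. The members' median difference was 1.48 in nascent and 0.69 in total RNA at 45 min, and 3.83 and 4.78 at 270 min, beside medians of 0.106, -0.01, 0.119 and 0.075 over all genes. These comparisons share their unstimulated arrays. From 45 to 270 min 5 members rose in nascent RNA (Cxcl3, Cxcl5, Cxcl9, Cxcl10 and Cxcl11; 6.74% of all genes were higher) and 1, Cxcl1, fell (10% were lower). Those 5 genes rose in total RNA as well and 0 fell, where 6.64% of all genes were higher and 11.5% lower.

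**Figure D3:**
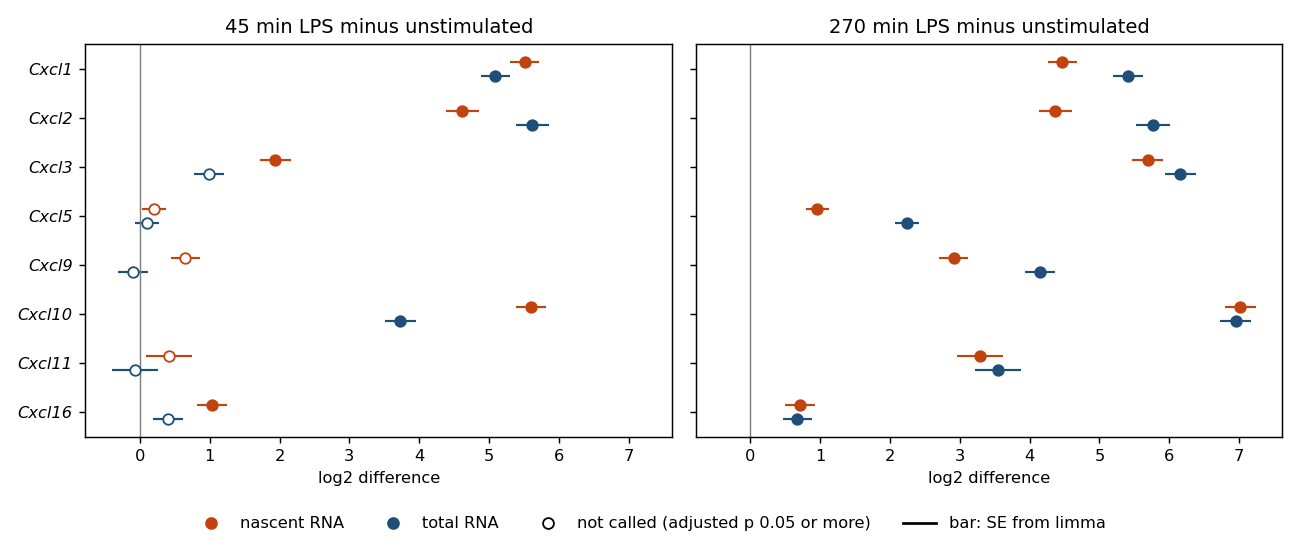
Log2 difference between stimulated and unstimulated arrays for each CXC chemokine gene at 45 min (left) and 270 min (right), in nascent and total RNA; bars are limma's SE, n = 2 arrays per group, and open points were not called. At 45 min 5 genes are called in nascent and 3 in total RNA, and at 270 min all 8 in both.

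Nascent and total RNA of the same culture were set against each other to ask how the newly made share of each transcript moved. Such a difference is relative to the other genes of both arrays, since different amounts of RNA were amplified and each array was scaled. In unstimulated cells 0 members were relatively lower in nascent RNA (8.42% of all genes were) and 2 were relatively higher, Cxcl2 by 1.67 ± 0.21 (adjusted p = 1.31e-05; 2.2 and 1.13 in the 2 experiments) and Cxcl1 by 0.81 ± 0.19 (adjusted p = 0.0049), where 7.58% of all genes were higher. At 45 min 6 of 8 were (11.2% of all genes), led by Cxcl10 (1.67 ± 0.19, adjusted p = 2.58e-06), Cxcl1 (1.22 ± 0.19, adjusted p = 6.02e-05) and Cxcl3 (1.1 ± 0.22, adjusted p = 0.000863). The other 3 were Cxcl9 (0.79 ± 0.22), which lay under background in both fractions, Cxcl2 (0.67 ± 0.21) and Cxcl16 (0.53 ± 0.17). The calls of Cxcl2 and Cxcl16 were lost under both scaling alternatives, and 2 and 3 members were called without the 45 min culture of experiment 1 and of experiment 2. At 270 min 0 of 8 were higher in nascent RNA (6.24% of all genes were) and 2 were lower (9.03%): Cxcl9 by -1.2 ± 0.22 (adjusted p = 0.000513) and Cxcl5 by -0.99 ± 0.19 (adjusted p = 0.000919).

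Whether LPS moved both fractions equally was tested directly, as nascent response minus total response. At 45 min the nascent rise exceeded the total rise for Cxcl10, by 1.87 ± 0.28 (adjusted p = 0.00213), with 2.29 in experiment 1 and 1.46 in experiment 2, the 1 member called higher (0.476% of all genes), with 0 lower (0.567%). With the experiment as a block Cxcl3 was called higher too (0.95, adjusted p = 0.0237) and Cxcl2 lower (-1, adjusted p = 0.000778), so that Cxcl2 had the larger rise in total RNA. The Cxcl10 call was lost without either 45 min culture (1.68 and 2.07, adjusted p = 0.291 and 0.153) and without pairing by culture (adjusted p = 0.095).

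At 270 min the total rise exceeded the nascent rise for 2 members (0.722% of all genes were lower in this comparison), and the nascent rise was the greater for 0 (0.12%). The 2 were Cxcl2 (-1.39 ± 0.29, adjusted p = 0.0204) and Cxcl5 (-1.28 ± 0.27, adjusted p = 0.0204), the latter from nascent levels under background. Both calls were lost without either 45 min culture (adjusted p = 0.247 and 0.256 for Cxcl2, 0.112 and 0.115 for Cxcl5). That of Cxcl2 was lost also without the 270 min culture of experiment 1 (-1.37, adjusted p = 0.058), under quantile scaling (-1.24, adjusted p = 0.292), without the intensity trend (adjusted p = 0.0597) and without pairing by culture (adjusted p = 0.164). That of Cxcl5 was lost without the unstimulated culture of experiment 1 (-0.99, adjusted p = 0.106). With the experiment as a block 4 members were called: Cxcl1 (-0.95, adjusted p = 0.0131) and Cxcl9 (-1.24, adjusted p = 0.00236) as well. For Cxcl10 and Cxcl16 the 2 responses at 270 min differed by 0.08 (95% confidence interval -0.5 to 0.65) and 0.04 (-0.46 to 0.54).

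Between the stimulated times, nascent RNA changed by less than, or in the opposite direction to, total RNA for 5 of 8 members, where 1.8% of all genes were lower in this comparison and 1.41% higher. The differences were -1.99 ± 0.31 for Cxcl9 (adjusted p = 0.000763), -1.8 ± 0.28 for Cxcl10 (adjusted p = 0.000723), -1.42 ± 0.31 for Cxcl3 (adjusted p = 0.0139), -1.37 ± 0.27 for Cxcl5 (adjusted p = 0.00584) and -1.36 ± 0.27 for Cxcl1 (adjusted p = 0.00595). All 5 had the same sign in both experiments. At 45 min Cxcl9 and Cxcl5 lay under background in both fractions, so their values are differences of fitted log2 levels and not measured sizes. Nascent Cxcl1 fell over this interval while its total RNA was not called, and for the other 4 both fractions rose. For Cxcl2 the difference was -0.4 (95% confidence interval -1.01 to 0.22) and not called. Leaving out either 45 min culture left 0 members called, leaving out the 270 min culture of experiment 1 or 2 left 4 or 3, and the unpaired fit called 3.

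**Figure D4:**
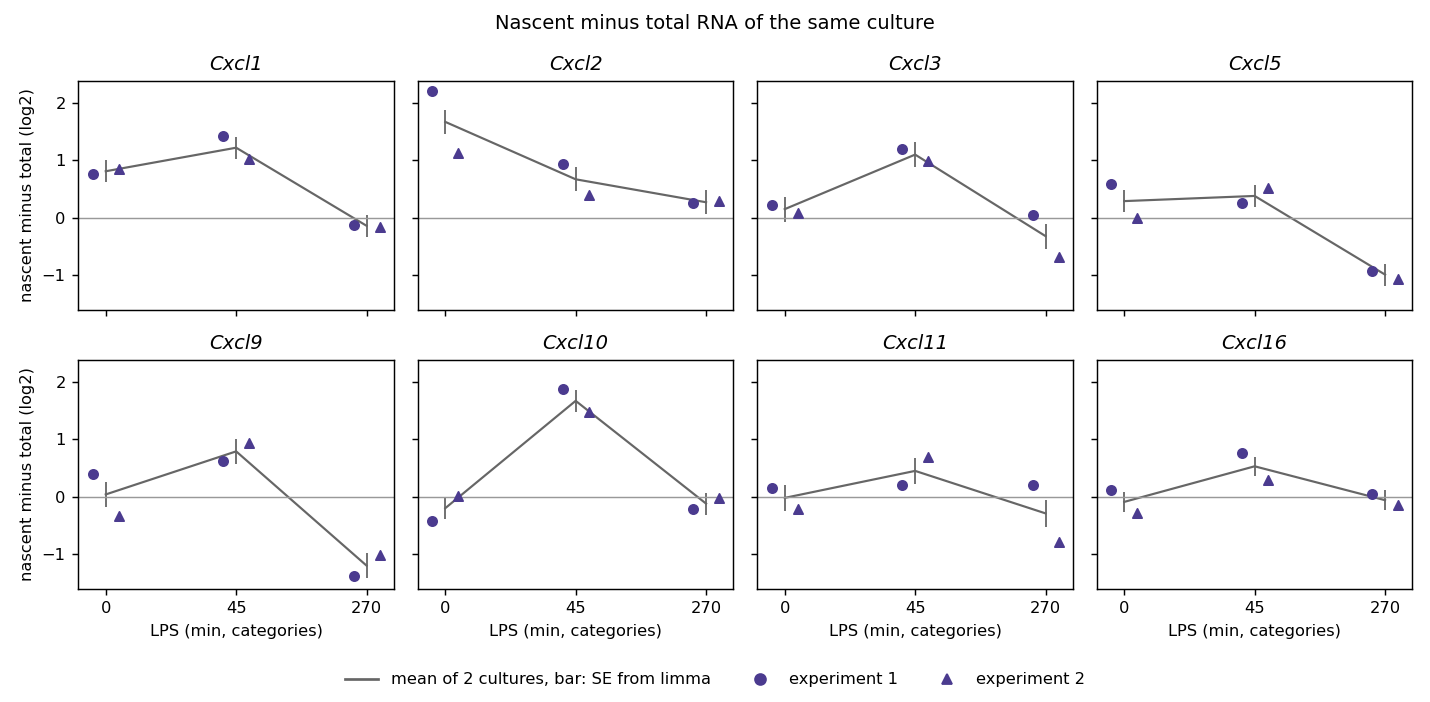
Nascent minus total log2 intensity of the same culture for the 8 CXC chemokine genes at 0, 45 and 270 min of LPS (equally spaced categories); points are single cultures, the line joins means of 2 cultures and bars are limma's SE. Cxcl10 rises to 1.67 at 45 min and is back near 0 at 270 min, Cxcl2 starts at 1.67 and declines, and Cxcl9 and Cxcl5 lie below 0 at 270 min.

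As a description of how alike the members' patterns were, Pearson's r of log2 values over the 12 arrays was 0.985 for Cxcl1 and Cxcl2, 0.974 for Cxcl5 and Cxcl9, 0.968 for Cxcl3 and Cxcl11, and 0.963 for Cxcl9 and Cxcl11. It was 0.647 for Cxcl1 and Cxcl3 and 0.471 for Cxcl1 and Cxcl11. Cxcl10 stood between, with r = 0.917 to Cxcl1 and 0.764 to Cxcl11. Cxcl5 lay under background on nearly every array, and Cxcl9 and Cxcl11 on all arrays before 270 min. The r values of these genes, here and below, thus mainly set the 270 min arrays against values under background. Over the same 12 arrays, which are 6 cultures measured in both fractions, the genes most like each member among those above background in some group were as follows. Cxcl1 was most like Tnf (r = 0.994), the cytokine, Cxcl2 and Nfkbiz, a co-regulator of NF-kB, and Cxcl2 was most like Tnf (0.99), Cxcl1 and Clec4e. Cxcl3 was most like Ifi205, Il12b and Il6 (0.995 each), cytokines except for Ifi205. Cxcl10 was most like Gbp5 (0.998), an interferon-inducible GTPase, Traf1 and Il1a. Cxcl9 was most like Il27 (0.991), Upp1 and Ccl17, Cxcl5 like Ccl17 (0.985), U90926 and Ccl24, and Cxcl11 like Scimp (0.986), Shisa3 and Lipg. For Cxcl16 the closest were Relb (0.929), Nxpe3 and Fbrs.

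Of the 7 other CXC ligand genes on the array, 1 was called higher in nascent RNA at 45 min, nascent RNA at 270 min and total RNA at 270 min, and it was Pf4 each time. Pf4, platelet factor 4, rose by 1.83 ± 0.39 in nascent RNA at 45 min (adjusted p = 0.0102), and by 1.44 ± 0.39 in nascent and 1.71 ± 0.39 in total RNA at 270 min (adjusted p = 0.0166 and 0.00674). Both nascent rises started from a mean of 5.72, with 1 of 2 unstimulated arrays above background. Cxcl14 fell in nascent RNA at 270 min to levels under background (-0.83 ± 0.25, at least 1.64-fold, adjusted p = 0.0267), and 0 of the 7 passed in total RNA at 45 min. Over all genes, 3.05% were higher in nascent and 0.662% in total RNA at 45 min. At 270 min 8.87% were higher and 14.2% lower in nascent RNA, and 7.02% were higher in total RNA. Whether the counts of this small list exceed those shares was not tested. The median difference of the 7 ranged from -0.04 to 0.32 in the 4 comparisons with unstimulated cells.

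Of the 8 CXC and atypical chemokine receptor genes, Cxcr4, the receptor of Cxcl12, fell by 0.73 (SE 0.19, adjusted p = 0.0307) in nascent RNA at 45 min, and at 270 min the difference was -4.62 ± 0.19 (adjusted p = 2.14e-09) in nascent and -4.06 ± 0.19 (adjusted p = 7.68e-09) in total RNA, both called. Cxcr3, the receptor of Cxcl9, Cxcl10 and Cxcl11, fell in both fractions at 270 min (-0.59 ± 0.19 in nascent and -0.68 ± 0.19 in total RNA, adjusted p = 0.0378 and 0.0215). Cxcr2, the receptor of the neutrophil chemokines, had mean levels of 4.42 to 4.85 over the 6 groups, under background. Cxcr6, the receptor of Cxcl16, had mean levels of 5.15 to 5.91, under background too, and was not called in any comparison of times. At 270 min, 2 receptors had fallen and 0 had risen in the nascent fraction, where 14.2% of all genes were lower and 8.87% higher. In total RNA 2 had fallen (12% of all genes were lower) and 1, Ackr3, was called higher from levels under background (7.02% were higher). Whether these counts differ from those shares was not tested.

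Of the 10 proteases and carriers, 1 rose in each comparison of stimulated with unstimulated cells, and it was Sdc4, a heparan sulfate carrier, with 2.23 ± 0.31 in nascent RNA at 45 min and 2.88 ± 0.31 in total RNA at 270 min (adjusted p = 0.000495 and 1.52e-05). Over all genes 3.05% were higher in nascent and 0.662% in total RNA at 45 min, and 8.87% and 7.02% at 270 min. Adam17, a protease that releases Cxcl16, was not called in any comparison of times. At 45 min 0 of the 10 fell, where 5.88% of all genes were lower in nascent and 0.0201% in total RNA. In nascent RNA at 270 min 3 fell, where 14.2% of all genes were lower. They were Sdc1, another heparan sulfate carrier (-1.58 ± 0.3, adjusted p = 0.00134), Mmp12, a macrophage metalloprotease (-1.18 ± 0.12, adjusted p = 9.8e-06), and Mmp8, a collagenase, to levels under background (adjusted p = 1.94e-05). In total RNA at 270 min 2 fell (12% of all genes were lower), Adam10 (-0.64 ± 0.18, adjusted p = 0.0226) and Mmp8 (-0.88 ± 0.18, adjusted p = 0.00364).

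Of 11 measured genes of the NF-kB arm, all 11 were higher in nascent RNA at 45 min and 6 in total RNA, and 8 and 9 were at 270 min, with 0 lower in these 4 comparisons. Over all genes 3.05% were higher in nascent and 0.662% in total RNA at 45 min, and 8.87% and 7.02% at 270 min. Lower were 5.88% and 0.0201% at 45 min, and 14.2% and 12% at 270 min. The median difference of the 11 genes was 2.19 in nascent RNA at 45 min and 1.57 at 270 min. Nfkbiz rose by 4.09 ± 0.19, Nfkbie, an inhibitor of NF-kB, by 3.52 ± 0.29 and Nfkbib by 2.9 ± 0.29 in nascent RNA at 45 min (adjusted p = 1.34e-08, 5.65e-06 and 3.91e-05). Later, between 45 and 270 min, 4 of the 11 fell in nascent RNA, Bcl3 the most (-2.15 ± 0.25, adjusted p = 2.81e-05), and 0 rose. Of all genes 10% were lower in that comparison and 6.74% higher.

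Of 16 measured genes of the interferon arm, 3 rose and 1 fell in nascent RNA at 45 min, 1 rose in total RNA, and at 270 min 6 rose and 2 fell in nascent RNA and 9 rose and 1 fell in total RNA. Ifnb1, interferon beta, was at 5.29 and 5.28 in nascent RNA without LPS, 7.52 and 7.44 at 45 min and 5.32 and 5.38 at 270 min, so that only the 45 min arrays were above background. It rose by 2.2 ± 0.16 at 45 min (at least 2.26-fold, adjusted p = 1.71e-06), and its total RNA lay under background at all 3 times, although the 270 min difference from unstimulated cells was called there (adjusted p = 0.0098). Irf1 rose by 2.38 ± 0.31 in nascent RNA at 45 min (adjusted p = 0.00027), while Irf7 (3.39 ± 0.4, adjusted p = 2.96e-05) and Stat2 (2.49 ± 0.24, adjusted p = 4.71e-06) led at 270 min. Irf7 and Stat2 were not called at 45 min. Beside the counts of this list, 3.05% of all genes were called higher and 5.88% lower for nascent RNA at 45 min. For total RNA at 45 min these shares were 0.662% and 0.0201%. At 270 min they were 8.87% and 14.2% for nascent RNA, and 7.02% and 12% for total RNA. Whether the counts differ from those shares was not tested.

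Of 12 factors that destabilise or protect AU-rich mRNAs, to which Cxcl1 and Cxcl2 mRNAs belong, 4 rose and 2 fell in nascent RNA at 45 min. Of all genes 3.05% were higher and 5.88% lower there. Zfp36, tristetraprolin, rose by 2.69 ± 0.28 (adjusted p = 4.49e-05), Dusp1, a phosphatase that switches off p38, by 2.65 ± 0.34 (adjusted p = 0.000254), and Mapkapk2, the kinase that inactivates tristetraprolin, by 2.15 ± 0.22 (adjusted p = 4.14e-05). Zfp36 then fell by 1.96 to 270 min (SE 0.28, adjusted p = 0.00017) in nascent RNA. Over the same interval Dusp1 fell by 3.07 (SE 0.34, adjusted p = 1.77e-05), and Zfp36l1, a relative of tristetraprolin, was at least 14.6-fold lower (adjusted p = 2.5e-08).

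Marker sums of several cell types differed between the unstimulated and the 270 min groups. The summed linear intensity of the 9 macrophage markers was 24700 to 26700 in unstimulated and 15000 to 19000 in 270 min nascent RNA, and 37400 to 43400 and 32900 to 41900 in total RNA, where the ranges overlapped. That of 6 dendritic cell markers was 728 to 816 and 1150 to 1420 in nascent RNA, and 1480 to 1690 and 1640 to 1890, overlapping, in total RNA, with Flt3 and Cd209a under background on every array. That of 5 endothelial markers was 674 to 896 and 1140 to 1350 in nascent and 437 to 647 and 941 to 1240 in total RNA, with Kdr above background on every array and the other 4 (Cdh5, Tek, Esam and Pecam1) under it on every array. The 4 measured megakaryocyte markers, Pf4 among them, summed to 243 to 266 and 361 to 395 in nascent and to 270 to 367 and 511 to 662 in total RNA, and 0 of the 4 were above background on every array. The 11 neutrophil markers summed to 1160 to 1290 and 1370 to 1500 in nascent and to 2120 to 2600 and 1950 to 2110 in total RNA. The 9 mast cell and basophil markers summed to 527 to 685 and 735 to 1050 in nascent RNA. In total RNA they summed to 596 to 1640 and 861 to 1790, overlapping and far apart between replicate arrays. Of these markers Gata2 and Kit were above background on every array, and Mcpt4 and Cma1 under it. The 6 fibroblast markers summed to 535 to 578 and 618 to 642 in nascent and to 480 to 499 and 551 to 620 in total RNA. Lists under background on every array moved too. Of these, 2 erythroid markers summed to 94.2 to 102 and 116 to 130 in nascent RNA. The 4 B cell markers summed to 155 to 172 and 184 to 189 in total RNA, overlapping in nascent RNA. The 5 T cell markers, 3 of them under background throughout, summed to 274 to 289 and 307 to 336 in nascent RNA. Their ranges overlapped in total RNA. Whether such shifts follow the background level was not tested. The part of these cell types in the chemokine values was not tested.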

How the data were processed

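Arrays of 12 RNA samples were compared. The deposited values are linear intensities, 1 per probe set, which the authors made with RMA in Affymetrix Expression Console, as the submitters' processing notes name them. Their versions and further steps were not given in the sources used here. Values were taken to log2. RMA can compress differences of dim genes, and scaling to a common distribution removes any shift common to all genes. Genes were named from the platform annotation (35557 probe sets, of which 21789 had 1 symbol, 1621 several and 12147 no entry), giving 19938 genes; in 999 with several probe sets the one with the highest mean was used. No level filter was applied.

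Tests used limma 3.58.1 in R 4.3.3, with an intensity trend: 6 group means on 12 arrays (residual degrees of freedom 6, prior 7.4) for times, and a mean per time on the 6 within-culture nascent minus total differences (3, prior 16.5) for fractions. Experiment numbers pair the arrays because the labels give them as separate experiments. Deviations of same-numbered arrays correlated across genes at -0.295 to 0.645, and the pairs with the unstimulated nascent arrays ran from -0.295 to 0.025. For the 2 fractions of the same cultures the values were -0.055 without LPS, 0.175 at 45 min and 0.419 at 270 min. The pairing of the unstimulated arrays thus rests on the labels alone. Nothing says that the cultures came from separate animals, so p-values do not measure a spread between animals. They rest on the spread within groups, which limma draws in part from other genes, as the prior degrees of freedom show. An SE can thus be small where the experiments differ, as for unstimulated nascent minus total Cxcl2 (2.2 and 1.13, SE 0.21). The fit for times had no term for experiment or culture and took the 2 fractions of a culture as independent. Sequences are from RefSeq (GRCm38.p6), held for 5 of 8 members. Tables came from pandas 2.3.3 and numpy 2.4.6 under Python 3.11.15, figures from matplotlib 3.10.9.

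The members and lists were chosen with earlier results of these data known. All members are named; from each list the called genes with the largest change, up to 3 per comparison, were eligible, and for each member the 3 most correlated genes. Cxcr2, Cxcr6 and Adam17, and the flanking genes on the chromosome, were named in addition after values were seen. Alternatives were quantile scaling within each fraction, median centring, an offset of 16 before log2, leaving out dim genes, averaging probe sets, no trend, the experiment as a block, unpaired fits, fits per fraction and leaving out each array or culture.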

Additional observations from a re-analysis of the deposited data

Results flagged for a closer look

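LPS moved nascent and total RNA unequally by the test of that difference for 8 values, each a log2 difference between the fractions' responses. At 45 min against unstimulated cells it was 1.87 for Cxcl10, higher in nascent RNA. At 270 min against unstimulated cells it was -1.39 for Cxcl2 and -1.28 for Cxcl5, lower in nascent RNA. From 45 to 270 min it was -1.36 for Cxcl1, -1.42 for Cxcl3, -1.37 for Cxcl5, -1.99 for Cxcl9 and -1.8 for Cxcl10. Each had the same sign in both experiments, but none of the 8 calls held when either 45 min culture was left out. Both Cxcl5 values rest on nascent levels under background, and the Cxcl9 value on 45 min levels under background in both fractions, so these are not measured sizes. With 2 arrays per group no array could be tested for standing apart from its group.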

How the results depend on the processing

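Alternatives kept most single-gene values on their side of the threshold: 1523 did, 55 lost their call, 23 gained one and 19 changed sign. Counts for times against unstimulated cells stayed within 1.5 times. For the nascent minus total response at 45 min, 1 member was called higher and 0 lower; with the experiment as a replicate block it was 2 and 1, unpaired 0 higher, and leaving out a culture gave 0 to 4 and 0 to 1. At 270 min 2 were lower; quantile scaling, leaving out dim genes, no intensity trend and the unpaired fit each gave 1, median centring and the offset of 16 each gave 3 (Cxcl9 added, -1.27 and -1.2), the block 4, and leaving out a culture 0 to 4. Between the stimulated times 5 were lower, 3 unpaired, and 0 to 6 leaving out a culture. Nascent minus total at 45 min had 6 higher, 2 to 6 leaving out a culture; at 270 min 2 were lower, 1 without dim genes. The fall of nascent Cxcl1 was 1 call, and 0 to 1 leaving out an array. The block changed the calls given in the report and no other of the members. None of the values that changed sign was called on all arrays. Under quantile scaling these were the Cxcl5 response difference at 45 min (-0.1) and unstimulated nascent minus total Cxcl11 (0.06). Leaving out an array or culture gave -0.1 to 0.3 for total Cxcl5 at 45 min and -0.08 to 0.37 for total Cxcl2 from 45 to 270 min. Response differences ranged from -0.2 to 0.38 for Cxcl5 at 45 min and, at 270 min, -0.14 to 0.3 for Cxcl10, -0.77 to 0.24 for Cxcl11 and -0.16 to 0.24 for Cxcl16. Unstimulated nascent minus total ranged from -0.42 to 0.01 for Cxcl10, -0.21 to 0.16 for Cxcl11, -0.29 to 0.11 for Cxcl16, 0 to 0.58 for Cxcl5 and -0.33 to 0.4 for Cxcl9. At 270 min it ranged from -0.79 to 0.21 for Cxcl11, -0.15 to 0.04 for Cxcl16 and -0.68 to 0.04 for Cxcl3. The cause of these changes was not tested; a fit without 1 array or culture has fewer samples, and the lone one left is assumed to vary like the others. Over all genes, the 45 min response difference called 95 higher and 113 lower, 42 and 15 under quantile scaling and 44 and 81 under median centring. Nascent minus total at 45 min called 2226 and 2834, and 1544 and 3010 under median centring. Leaving out dim genes moved the median of all genes at 270 min from 0.119 to -0.134 in nascent and from 0.075 to -0.107 in total RNA. Genes under background, Cxcl5 above all, give only bounds.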

Other observations

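Some of the genes that flank the members on the chromosome, taken by position in the RefSeq gene table, were called higher too. Of 10 flanking genes that are no members, 2 were higher in nascent RNA at 45 min (3.05% of all genes were), 0 in total RNA at 45 min (0.662%), 3 in nascent RNA at 270 min (8.87%) and 4 in total RNA at 270 min (7.02%), and 0 were lower in these comparisons. The largest rises were those of Pf4, next to Cxcl3, by 1.83 ± 0.39 in nascent RNA at 45 min and by 1.44 ± 0.39 in nascent and 1.71 ± 0.39 in total RNA at 270 min (adjusted p = 0.0102, 0.0166 and 0.00674). In unstimulated nascent RNA Pf4 was above background on 1 of 2 arrays. Nup54, a nuclear pore gene next to Cxcl11, rose by 1.08 ± 0.28 in total RNA at 270 min (2.11-fold, adjusted p = 0.016). Cxcl15 and Ppbp, chemokine genes within the chromosome 5 cluster, had means of 3.88 to 4.27 and 4.41 to 5.16 over the 6 groups and lay under background on every array, as did Rassf6 and Art3. Mthfd2l, the folate enzyme gene next to Cxcl2, rose by 0.74 ± 0.2 in nascent RNA (adjusted p = 0.0135) and 0.66 ± 0.2 in total RNA (adjusted p = 0.0291) at 270 min and was not called at 45 min, when Cxcl2 had risen. Zmynd15, next to Cxcl16, rose by 0.87 ± 0.24 in nascent RNA at 45 min (adjusted p = 0.0353), beside 1.03 ± 0.21 for Cxcl16, and RefSeq lists its symbol among the synonyms of Cxcl16.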
